A study of Mus musculus with 2 samples.

Results

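The keratinocytes described here are skin cells that carry RNA of Fst and Sostdc1 together with Vsnl1, Cacna2d2, Aldh3a1 and Rassf9, a group that had been labelled outer root sheath. Members were selected on these measured counts, barcode by barcode. A cell barcode was counted as a member when it held at least 500 UMIs (unique molecular identifiers, each standing for 1 captured RNA molecule) and 300 genes, at most 20% of UMIs from mitochondrial genes, and at least 0.3% of UMIs from the basal keratin genes Krt5 and Krt14. It also had to hold a UMI of at least 3 of the 6 panel genes, a UMI of fewer than 4 of 7 bulge and hair germ genes (Lhx2, Lgr5, Tbx1, Pthlh, Sfrp1, Shisa2, Alcam), and fewer than 3 UMIs of Krt79, a keratin of the upper follicle. Of 20437 deposited barcodes, 19468 passed the quality limits, 14711 of them passed the Krt5 and Krt14 limit, and 2087 were members. The WT library gave 1207 members of 10160 kept barcodes and the Chrna5-/- library gave 880 of 9308.

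The study sequenced dorsal skin cells of WT and Chrna5-/- mice with a droplet method. Chrna5 encodes the alpha5 subunit of nicotinic acetylcholine receptors. The animals were female C57BL/6 mice of 6 to 8 weeks whose shaved back skin received vaseline, the cream base, and the samples were taken on day 7. Both groups carry this treatment and no other agent by their titles, while the shared protocol text also speaks of imiquimod, and the substrain is written both as C57BL/6N and C57BL/6J. The Chrna5-/- line is a whole-body deletion backcrossed to C57BL/6N. Each genotype is represented by 1 library, and the number of mice behind a library is not given in the sources used here. Cells were digested with collagenase and sorted as live before loading, so shares below are shares of sorted live cells and not of the skin.

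The outer root sheath is the outermost epithelial layer of the hair follicle. It is continuous with the basal layer of the epidermis at the follicle mouth, surrounds the inner root sheath and the hair shaft, and borders the bulge, where follicle stem cells reside. Follistatin, the product of Fst, binds activins and some BMPs and keeps them from their receptors, and Sostdc1 (also called ectodin or Wise) is a secreted antagonist of BMP and Wnt signalling. BMP signals hold follicle stem cells at rest and Wnt signals drive the growth phase of the hair cycle, so secreted inhibitors of both are known regulators of the follicle.

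Members were deeply sequenced. Their median was 17164 UMIs in WT and 15520 in the knockout library, and the UMIs summed over members came to 23135156 and 15464327. Other keratinocytes (the Krt5 and Krt14 barcodes that were neither members nor of the bulge or Krt79 classes below) had medians of 14099 and 14007. Of the members, 122 in WT (10.1%) and 92 in the knockout library (10.5%) had a doublet score above 0.25, against 4.61% and 5.39% of other keratinocytes. Genes of the dermal papilla and fibroblasts came from few members: 30 WT and 20 knockout members held at least 4 of the 13 listed genes and carried 88.0% and 89.5% of the UMIs of that list, and 21 and 16 of them had a high doublet score. The corresponding numbers were 19 and 4 members for 8 melanocyte genes, 31 and 15 for 12 T and innate lymphoid genes, and 12 and 2 for 10 Langerhans cell and macrophage genes. Values called trimmed below leave out these members and all with a high doublet score, which left 1039 WT and 776 knockout members, and treat the comparison keratinocytes alike. The libraries shared 34 barcodes, and 7 WT members and 1 knockout member had such a barcode. The part of depth, doublets and other cell types in the results below was not tested, beyond the trimmed and thinned values given beside them.

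Chrna5 itself could not serve as a check of the genotype in these cells. WT members held 1 UMI of Chrna5, or 0.0432 CPM (UMIs of a gene per 1000000 UMIs of the summed cells, exact 95% Poisson interval 0.00109 to 0.241). Knockout members held 0, with an interval that reaches 0.239 CPM. The gene was not detectable at a level that would tell the libraries apart in members at this depth.

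The panel genes chose the members, so their levels are a description only. Fst (chromosome 13, 114452290 to 114458951, minus strand, GRCm38) stood at 438 CPM in WT members and 420 CPM in knockout members, with a UMI in 80.3% and 75.0% of them. Sostdc1 (chromosome 12, 36314139 to 36318452, plus strand) stood at 362 and 460 CPM and was found in 90.3% and 95.2%. Aldh3a1, an aldehyde dehydrogenase gene (chromosome 11, 61207537 to 61218421, plus strand), stood at 131 and 121 CPM. Rassf9, of the Ras association domain family (chromosome 10, 102512222 to 102549736, plus strand), had 58.1 and 50.2 CPM, Cacna2d2, a calcium channel subunit gene (chromosome 9, 107399612 to 107529343, plus strand), had 52.9 and 47.7 CPM, and Vsnl1, which encodes the calcium sensor visinin-like 1 (chromosome 12, 11325242 to 11436613, minus strand), had 51.4 and 54.0 CPM. CPM of a gene is not divided by its length, so these levels are not ranked between genes. Fst was missing from 238 WT and 220 knockout members, while all 6 genes were detected together in 146 and 75.

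**Figure D1:**
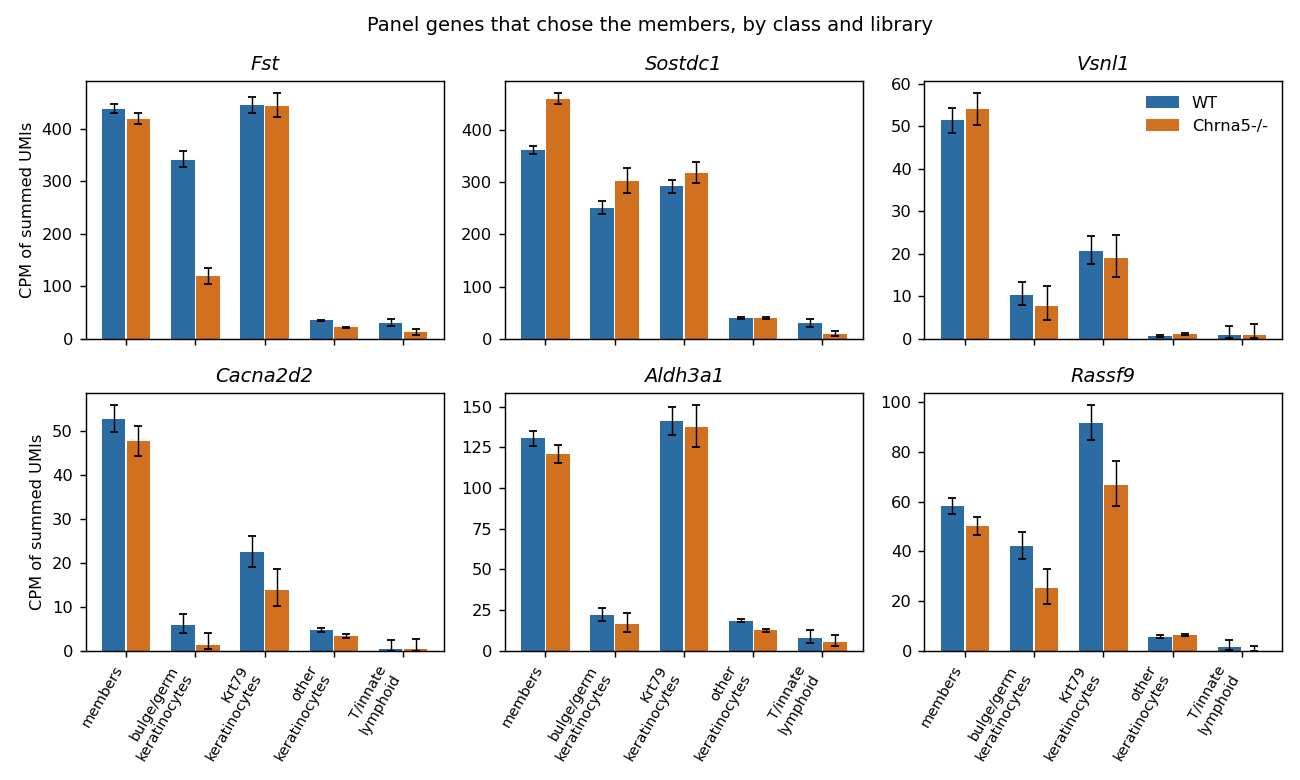
CPM of summed UMIs (vertical axes, linear, starting at 0) of the 6 panel genes in 5 classes of barcodes, blue for WT and orange for Chrna5-/-; bars are single libraries and error lines are exact 95% Poisson intervals that cover counting error only. In WT, Fst, Aldh3a1 and Rassf9 were as high or higher in the Krt79 class. In WT and knockout members Fst stood at 438 and 420 CPM, against 34.9 and 21.8 CPM in other keratinocytes.

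Panel genes also had UMIs in T and innate lymphoid barcodes, taken here as a background. After each cell was thinned to 5000 UMIs, Fst had a UMI in 60.02% of 1183 WT members and 52.6% of 853 knockout members, in 7.73% and 5.82% of other keratinocytes, and in 6.98% of 86 WT and 3.57% of 84 knockout T and innate lymphoid barcodes deep enough to use. Unthinned, the T and innate lymphoid shares for Fst were 3.49% and 2.72% at medians of 3003 and 3134 UMIs. Vsnl1, Cacna2d2 and Rassf9 had a UMI in 21.5%, 23.9% and 22.4% of thinned WT members and in at most 1.16% of the thinned WT lymphoid barcodes. Aldh3a1 had a UMI in 44.9% of thinned WT members and 4.65% of these lymphoid barcodes. Sostdc1 had the highest background, 11.6% of WT and 4.76% of knockout lymphoid barcodes, with 10.9% and 11.7% of other keratinocytes and 67.2% and 75.03% of members, so its WT share in other keratinocytes was at the background. The source of these UMIs was not tested, and 14 WT and 7 knockout lymphoid barcodes had a high doublet score. Among members, which were selected on these same genes, Fst and Sostdc1 had a Pearson r of 0.167 over 1183 thinned WT members and 0.228 over 853 knockout members, on log counts of cells that share a library and a depth. The selection acts on this value, and nothing is read from it.

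Values on either side of each limit of the rule are given as a description. Sox9, a follicle transcription factor gene that the rule did not use, stood at 167 CPM in the 451 WT members with exactly 3 panel genes and at 79.2 CPM in the 842 otherwise matching WT keratinocytes with 2. In the knockout library the values were 114 CPM in 356 members with 3 panel genes and 55.4 CPM in 788 cells with 2. WT members with 4, 5 and 6 panel genes had 230, 286 and 358 CPM. Members with 2 Krt79 UMIs, just inside that limit, numbered 38 and 18 and had 328 and 422 CPM of Sox9, and the 14 and 5 cells with 3 Krt79 UMIs had 504 and 535 CPM. At the bulge limit, 12 WT members with 3 bulge genes had 260 CPM and 16 WT cells with 4 had 680 CPM, and 12 knockout members with 3 had 295 CPM, with no knockout cell at 4. The 74 WT and 46 knockout cells that met the rest of the rule with under 0.3% Krt5 and Krt14 had 12219 and 10659 CPM of Krt10, against 986 and 822 CPM in members.

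Against marker lists, members were follicular but not clearly of the outer root sheath alone. A gene was called higher or lower in members than in other keratinocytes when the ratio of CPM was at least 1.5 in that direction in both libraries and when members and comparison cells together held at least 50 UMIs of it in each library. By this rule 631 of 12072 genes (5.23%) were higher and 392 (3.25%) were lower. In trimmed members 534 of 11598 (4.60%) were higher and 489 (4.22%) were lower. Of 11 measured genes of the outer root sheath and whole follicle list, 5 were higher (Sox9, Runx1, Barx2, Krt17, Cd200) and 2 were lower (Krt16, Krt6b). Of 12 measured isthmus and upper follicle genes, 5 were higher, among them Gata6, Atp6v1c2, Lrig1 and Krt17, and none was lower, so the lists for the outer root sheath and for the isthmus were called at a like rate and share Krt17. Of 11 measured bulge stem cell genes, 3 were higher, among them Sox9, and 0 were lower, with the same counts in trimmed members. The median log2 ratio of that list was 0.22 in WT and 0.75 in the knockout library. The cells are therefore named here by their panel genes and not by a layer.

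Sox9 is needed for outer root sheath and bulge formation. It stood at 238 CPM in WT members and 191 CPM in knockout members, against 47.1 and 27.6 CPM in other keratinocytes, a ratio of 5.06 (exact 95% counting interval 4.85 to 5.28) and 6.92 (6.56 to 7.31). Barx2, a homeobox gene active in follicles, stood at 185 and 196 CPM in members, 2.91 and 3.08 times the level of other keratinocytes. Runx1, a regulator of follicle stem cell activation, was 3.25 and 4.77 times as high. Gata6, a transcription factor gene of the upper follicle and sebaceous duct, was low in members at 10.2 and 8.54 CPM but 10.6 and 11.1 times its level in other keratinocytes. Lrig1, a marker of isthmus stem cells, was 3.08 and 3.20 times as high. All of these kept the call in trimmed members. In WT the bulge and Krt79 classes stood above members for Barx2 (503 and 295 CPM) and for Sox9 (882 and 550 CPM). The same held in WT for Lrig1 (78.4 and 66.9 CPM against 49.1) and Krt17 (4043 and 5390 CPM against 1645). In thinned knockout cells Sox9 stood at 932 and 596 CPM in these classes against 212 in members, and Barx2 at 467 and 284 against 211.

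Krt75, a keratin of the companion layer next to the outer root sheath, was nearly absent, with 9 UMIs in WT and 2 in knockout members. Cd34, a marker of bulge stem cells, stood at 2.33 and 2.59 CPM in members against 68.3 and 56.0 CPM in keratinocytes with 4 or more of the 7 bulge and germ genes (520 WT and 173 knockout cells). Sox9 was also lower in members than in that bulge class, where it stood at 882 and 808 CPM. Krt15, a basal and bulge keratin, stood at 1465 and 1921 CPM in members and at 2000 and 2848 CPM in other keratinocytes. Krt5 and Krt14, which the rule used, stood at 6701 and 12182 CPM in WT members and at 7838 and 14417 CPM in other WT keratinocytes. Of 16 measured suprabasal genes 5 were lower (3.25% over all genes) and none was higher (5.23%). Krt1 was at 0.533 and 0.472 and Krt10 at 0.569 and 0.452 of the other keratinocytes. Of 15 interfollicular basal genes only Igfbp3 and Thbs1 were called, both lower.

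Among the genes with the highest ratios against other keratinocytes, Hmcn1, which encodes the matrix protein hemicentin 1, led with 26.8 and 31.4 CPM in WT and knockout members against 2.83 and 2.04 CPM in other keratinocytes, a ratio of 9.48 (8.14 to 11.1) and 15.3 (12.9 to 18.3). Ccl2, a chemokine gene that attracts monocytes, had 126 and 58.2 CPM in members and ratios of 7.81 and 13.0. It was not higher than in the other follicle classes, with 134 and 109 CPM of Ccl2 in the Krt79 class and 257 and 75.4 CPM in the bulge class. Emb (embigin, a cell surface glycoprotein), Defb1 (a beta-defensin) and Klk7 (a kallikrein protease) had ratios of 6.41, 5.30 and 5.10 in WT and 7.34, 6.43 and 6.33 in the knockout library. C1qtnf12, Acot1, Tm4sf1, Timp3, Nedd9 and Adgra3 followed with ratios between 3.503 and 5.71 over both libraries. Timp3 encodes a metalloproteinase inhibitor and Nedd9 a focal adhesion scaffold. Each of these genes had a higher ratio in trimmed members than in all members.

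The genes lowest in members were Mt4, a metallothionein gene of differentiating epidermis (32.8 and 63.1 CPM, ratios 0.242 and 0.244), Igfbp3, which encodes an IGF-binding protein (308 and 215 CPM, ratios 0.260 and 0.271), and Slc4a8, a bicarbonate transporter gene (ratios 0.268 and 0.220). Hpgds, a prostaglandin D synthase gene, had ratios of 0.276 and 0.257, and Dio2, which encodes the enzyme that activates thyroid hormone, 0.285 and 0.292. Il12rb2, Epb41l3 and Serpinb7 had ratios from 0.255 to 0.348. The direction was the same in WT and knockout cells for each.

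Members were next compared with the other follicle classes. Against the bulge class, 884 of 10210 measured genes (8.66%) were higher in members and 1508 (14.8%) were lower. Genes nearly absent from members were measured through their UMIs in the bulge class, and their direction was then fixed, so the next values are a description. Tagln, a contractile protein gene, stood at 1.51 and 1.55 CPM in members against 153 and 168 CPM in the bulge class, and Nt5e, which encodes the surface enzyme CD73, at 0.605 and 0.323 against 71.1 and 47.4 CPM. Wfdc18, Grem1 (a BMP antagonist) and Cps1 were at 0.346 CPM or below in members of either library, and Scrg1 had no UMI in any member against 48.8 and 48.4 CPM in the bulge class. Members were higher for Ntrk2, a neurotrophin receptor gene (24.03 and 29.7 CPM against 3.85 and 1.90), Thbd, which encodes thrombomodulin, Defb1, Slc22a4, Ass1 and Fzd10, a Wnt receptor gene (35.8 and 34.9 CPM against 5.601 and 6.64). The knockout bulge class held 4 UMIs each of Ntrk2 and Thbd, 9 of Defb1, 10 of Slc22a4, 20 of Ass1 and 14 of Fzd10. In that library these genes were measured through their UMIs in members. Their direction was then fixed, so their values are a description too. The 884 higher genes may include others measured in this way.

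Relative to the Krt79 class (455 WT and 230 knockout cells), 1037 of 10060 genes (10.3%) were higher in members and 532 (5.29%) were lower. Defb6, a beta-defensin of the upper follicle, stood at 39.2 and 20.8 CPM in members against 2178 and 1310 CPM, and Cst6, a cysteine protease inhibitor gene, at 36.2 and 33.1 against 1731 and 1152 CPM. Klk7 was higher in members than in other keratinocytes but at 0.0642 and 0.0456 of the Krt79 class, so it falls between them. Akr1c18, Skint9 and Alox12e were also far lower. Akr1c18 had 3 UMIs in knockout members against 125 in the knockout Krt79 class, so it was measured there through its UMIs in that class. Its direction was then fixed, and its value is a description. The 532 lower genes may include others measured in this way. Antxr1 (a collagen-binding receptor), Col16a1, Sox6, Prss23 and Wnt5a were 3.52 to 5.36 times as high in members. The knockout Krt79 class held 15 UMIs of Col16a1, 48 of Sox6 and 25 of Wnt5a. Col16a1, Sox6 and Wnt5a were measured there through their UMIs in members, and their values are a description. The 1037 higher genes may include others measured in this way. Vcan, a dermal papilla proteoglycan gene, was 7.57 and 3.45 times as high over all members, but in trimmed members the ratios were 3.86 and 0.670, and 71.4% of its WT UMIs lay in 10 members.

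In the BMP and activin pathway, ligand and antagonist genes were called and the main signal mediators were not. Of 39 measured genes 8 were higher in members than in other keratinocytes (5.23% over all genes) and 2 were lower (3.25%), and 4 and 3 were called in trimmed members (4.60% and 4.22%). The 2 lower genes are near the share over all genes. Among ligands, Bmp7 (34.2 and 29.4 CPM) was 2.15 and 2.12 times as high, and Inhbb, which encodes the beta B subunit of activin B, was low at 6.83 and 5.82 CPM but 3.98 and 9.49 times as high. Bmp4 (15.9 and 19.8 CPM, 0.540 and 0.6499) and Bmp3 (0.403 and 0.467) were lower, and Bmp2, at 88.9 and 85.5 CPM, was not called. Among antagonists besides Fst and Sostdc1, Nog, which encodes noggin, stood at 3.41 and 3.04 CPM, 3.95 and 5.95 times the level of other keratinocytes. The receptor gene Bmpr2 (116 and 122 CPM), the mediator genes Smad1 and Smad4, and the BMP target Id3 (365 and 358 CPM) were not called. Calls of Bmp6, Fstl1 and Htra3 did not hold in trimmed members or were not measured there.

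Wnt pathway genes were called in both directions. Of 45 measured genes 11 were higher and 4 were lower, and in trimmed members 6 and 5, beside the same shares of 5.23% and 3.25%, and 4.60% and 4.22%, over all genes. Among ligands, Wnt11 (4.63 and 6.79 CPM) was 3.99 and 3.58 times as high, while Wnt7b (34.2 and 26.6 CPM, 0.378 and 0.410) and Wnt5a (0.607 and 0.654) were lower, and Wnt4 and Wnt10a, at 256 and 277 CPM and at 109 and 123 CPM, were not called. Among receptors, Fzd7 was 2.87 and 3.38 times, Fzd3 2.60 and 2.22 times and Fzd1 1.84 and 1.53 times as high. Apcdd1, a Wnt inhibitor gene, was 2.77 and 2.98 times as high at 2.94 and 4.40 CPM. Wif1, another secreted inhibitor, was higher over all members (1.94 and 3.20) but not in trimmed members, and 82.6% of its WT UMIs lay in 10 members. Gli2, Gli3 and Boc of the hedgehog pathway, Itgb8 and Ltbp1, which act in the release of latent TGF-beta, and Fgfr1 were higher in members in both libraries, with and without trimming.

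Members took a smaller share of the knockout library. They made up 11.9% of kept WT barcodes (exact 95% binomial interval 11.3 to 12.5) and 9.45% of kept knockout barcodes (8.87 to 10.1), a ratio of 0.796 (0.729 to 0.869). Of Krt5 and Krt14 barcodes they made up 15.9% and 12.3%. The bulge class was smaller by more, at 5.12% and 1.86% (ratio 0.363, 0.304 to 0.432), as was the Krt79 class at 4.48% and 2.47% (0.552, 0.469 to 0.648), while other keratinocytes took 53.2% and 62.8%. With 1 library for each genotype there is no test of the difference, the intervals cover counting error only, and genotype cannot be told apart from animal, dissection or library. Detection depends on depth, and members were deeper in WT. When every cell was thinned to 5000 UMIs before the rule, 590 WT and 401 knockout barcodes were members and the ratio of shares was 0.758.

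Gene levels were then compared between knockout and WT members. A gene was measured when the members of both libraries together held at least 50 UMIs of it and at least 20 members held a UMI, and it was called higher or lower when the ratio of CPM was at least 1.5 in either direction and its exact counting interval left out 1. Of 11098 measured genes, 311 (2.80%) were higher in knockout members and 377 (3.40%) were lower, and the median log2 ratio over all of them was -0.0038. In trimmed members 321 (3.03%) were higher and 302 (2.85%) lower of 10591. These calls describe 2 libraries and are not tests of genotype. A gene with few UMIs in 1 library could be measured through the other alone, and its direction was then fixed. Each ratio below is followed by the ratio in other keratinocytes where it helps to place it, since both classes come from the same libraries.

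Among the 12 lower genes whose intervals lay farthest from 1 were interferon-induced genes and class II antigen presentation genes. Ifi27l2a, an interferon-induced gene (chromosome 12, 103442167 to 103443680, minus strand), stood at 505 CPM in WT members and 63.9 CPM in knockout members, a ratio of 0.127 (0.118 to 0.135), and the ratio in other keratinocytes was 0.150. It had a UMI in 84.8% of WT and 40.5% of knockout members. Nppb, which encodes B-type natriuretic peptide (chromosome 4, 147985788 to 147987205, plus strand), stood at 206 and 38.9 CPM, a ratio of 0.189 (0.173 to 0.205), and 0.239 in other keratinocytes. Mid1, a ubiquitin ligase gene, stood at 18.9 and 3.43 CPM (0.181), against 0.130 in other keratinocytes. Rtp4, an interferon-induced gene, had 3.89 and 0.388 CPM, from 90 and 6 UMIs, and Xlr3b 2.90 and 0.259 CPM, from 67 and 4 UMIs. Apol9a and Apol9b had 3 UMIs each in knockout members, with ratios of 0.0724 (0.0145 to 0.222) and 0.0591 (0.0119 to 0.179). Reads of Apol9a and Apol9b, as near-identical copies, cannot be assigned to either with certainty. Rtp4, Xlr3b, Apol9a and Apol9b were measured through their WT UMIs. Their direction was then fixed, and their values are a description.

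The class II antigen presentation genes Cd74, H2-Aa, H2-Ab1 and H2-Eb1 were lower in summed knockout members, at 42.5 and 3.43 CPM for Cd74 and 26.5 and 2.39 CPM for H2-Ab1. Their WT UMIs were concentrated: 10 members held 89.3%, 91.6%, 82.7% and 82.2% of them. In trimmed members the ratios were 0.623, 0.842, 0.470 and 0.982 instead of 0.0807, 0.0831, 0.0902 and 0.190. The Langerhans cell and macrophage list as a whole summed to 126 CPM in WT and 19.3 CPM in knockout members, with 10 of 10 genes detected in both, and 12 WT members held 83.0% of it. Ndnf, a secreted neurotrophic factor gene, had 91.0% of its WT UMIs in 10 members, and its ratio over all members was 0.135. Trimmed members held 7 WT and 2 knockout UMIs of Ndnf, too few for it to be measured there. Over all knockout members H2-Aa, H2-Ab1 and Ndnf had 25, 37 and 17 UMIs, so they were measured through their WT UMIs.

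Of the higher genes, Ptk2, which encodes focal adhesion kinase (chromosome 15, 73205102 to 73423280, minus strand), stood at 24.4 and 65.6 CPM, a ratio of 2.69 (2.43 to 2.99), had a UMI in 34.2% and 63.4% of members, and had a ratio of 2.67 in other keratinocytes. Txnip, a thioredoxin-interacting protein gene, stood at 42.1 and 105 CPM (2.49, and 2.73 in other keratinocytes), Zbtb16, a transcriptional repressor gene, at 7.56 and 21.3 CPM (2.81, and 2.78), and Fbxo32, an atrophy-linked ubiquitin ligase gene, at 10.7 and 25.03 CPM (2.34, and 2.20). Cxcl1, a neutrophil chemokine gene (chromosome 5, 90891241 to 90893115, plus strand), stood at 31.3 and 65.8 CPM, a ratio of 2.10 (1.91 to 2.32) beside 1.34 (1.26 to 1.43) in other keratinocytes. Wdfy1, Nrn1, Pls1, Rab4a, Ism1 and Efcab7 were higher at levels under 9 CPM in both libraries. Wdfy1, Nrn1 and Rab4a had 40, 16 and 30 WT UMIs and were measured through their knockout UMIs, so their values are a description. Krt6b was higher at 2.55 and 15.3 CPM, but 97.9% of its knockout UMIs lay in 10 members and in the thinned cells its direction turned, to a log2 ratio of -0.44. Ratios of members and of other keratinocytes were close for Ptk2, Txnip, Zbtb16, Fbxo32 and Ifi27l2a, whose differences between the libraries therefore were not limited to members, and no test of a difference between the classes was possible.

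**Figure D2:**
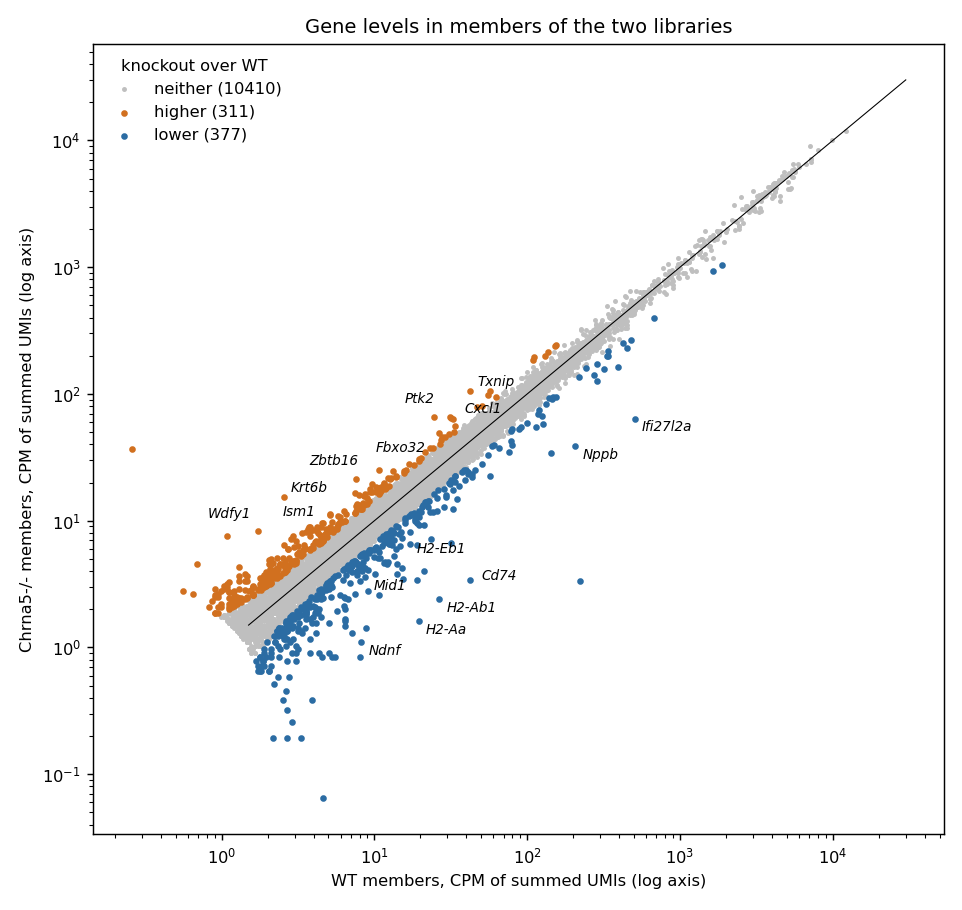
CPM of summed UMIs of each of 11098 measured genes in WT members (horizontal axis) and Chrna5-/- members (vertical axis), both on log axes, with a line of equal levels; orange marks the 311 genes called higher in the knockout library, blue the 377 called lower, and grey the rest. Names are given for those genes of the naming rule that reached 7 CPM in either library, and the unnamed outlying points include gene models with no given symbol.

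Most measured type I interferon response genes were lower in knockout members. Type I interferons act on a shared receptor and switch on a set of antiviral genes through transcription factors of the STAT and IRF families. Of 29 listed genes in the files 16 were measured in members, and 0 were higher and 13 lower in the knockout library, against 3.40% lower over all genes, with a median log2 ratio of -1.63. In trimmed members it was 12 of 15 with a median of -1.62. Genes with few knockout UMIs, such as Isg15, could be measured through WT members alone, and their direction was then fixed. With the measured limit at 100 UMIs, 10 of 13 genes were lower with a median of -1.33. At 20 UMIs it was 16 of 20 with a median of -1.74. Among sensors, Ddx58, which encodes the RNA sensor RIG-I, was at 9.16 and 5.56 CPM (0.607) and Ifih1, which encodes MDA5, at 13.8 and 10.5 CPM was not called. Among the signalling genes, Irf7 (5.66 and 1.94 CPM, 0.343) was lower, and Stat2 at 9.47 and 8.73 CPM was not called. Among effectors, Bst2, which encodes tetherin, was at 23.6 and 7.18 CPM (0.304), Oasl2 at 6.40 and 1.49 CPM, Oas1a at 4.54 and 0.841 CPM, Xaf1 at 6.40 and 1.62 CPM, Usp18 at 3.89 and 1.55 CPM, Ifi35 at 18.7 and 10.8 CPM and Isg15 at 2.68 and 0.323 CPM. Most of these were low in members, below 10 CPM in WT, and Ifi27l2a alone exceeded 30 CPM. Other keratinocytes had ratios in the same direction, with 0.439 for Bst2 and 0.287 for Oas1a. Ifi27l2a was also 2.40 and 2.03 times as high in members as in other keratinocytes of the same library, but stood at 491 and 64.1 CPM in the Krt79 class, close to members, and at 241 and 109.6 CPM in the bulge class.

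Promoters of these genes are shown because the list moved together and because interferon-activated factors are known to bind a paired GAAA element. RefSeq promoter windows (GRCm38.p6, 250 bases before to 50 bases after the start of a transcript) were searched for GAAANNGAAA and its reverse complement TTTCNNTTTC, which covers both strands, with overlapping matches allowed. The table held a window for 9 of the 13 lower genes, and 4 of the 9 had a match (Ddx58, Isg15, Oas1a, Bst2), against 1131 of 32851 windows overall (3.44%). Both measured genes of the list that were not lower and had a window, Stat2 and Ifih1, had a match too, and so did 6 of 10 unmeasured genes with a window. A match is a description of the letters only. Sequences below run 5′ to 3′ on the gene's strand, stop before the start site, and have the matches in capitals.
Isg15 (chr4:156200855-156200924, minus strand): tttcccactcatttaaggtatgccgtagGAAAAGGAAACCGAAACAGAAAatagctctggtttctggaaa
Oas1a (chr5:120907526-120907579, minus strand): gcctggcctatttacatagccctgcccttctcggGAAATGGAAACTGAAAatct
Bst2 (chr8:71537567-71537636, minus strand): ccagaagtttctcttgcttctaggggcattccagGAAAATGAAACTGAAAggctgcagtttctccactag
Stat2 (chr10:128270248-128270305, plus strand, not called): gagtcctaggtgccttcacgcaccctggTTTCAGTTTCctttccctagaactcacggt

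In Isg15 3 matches overlap within the printed stretch and in Oas1a and Bst2 there are 2 each. The nearest match began 66 bases before the start in Isg15, 14 in Oas1a, 124 in Bst2 and 222 in Stat2. The printed lower genes Isg15, Oas1a and Bst2 and the uncalled Stat2 thus all carry the element in these windows. The lower genes Oasl2, Irf7, Xaf1, Ifi35 and Lgals3bp had no match in theirs.

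**Figure D3:**
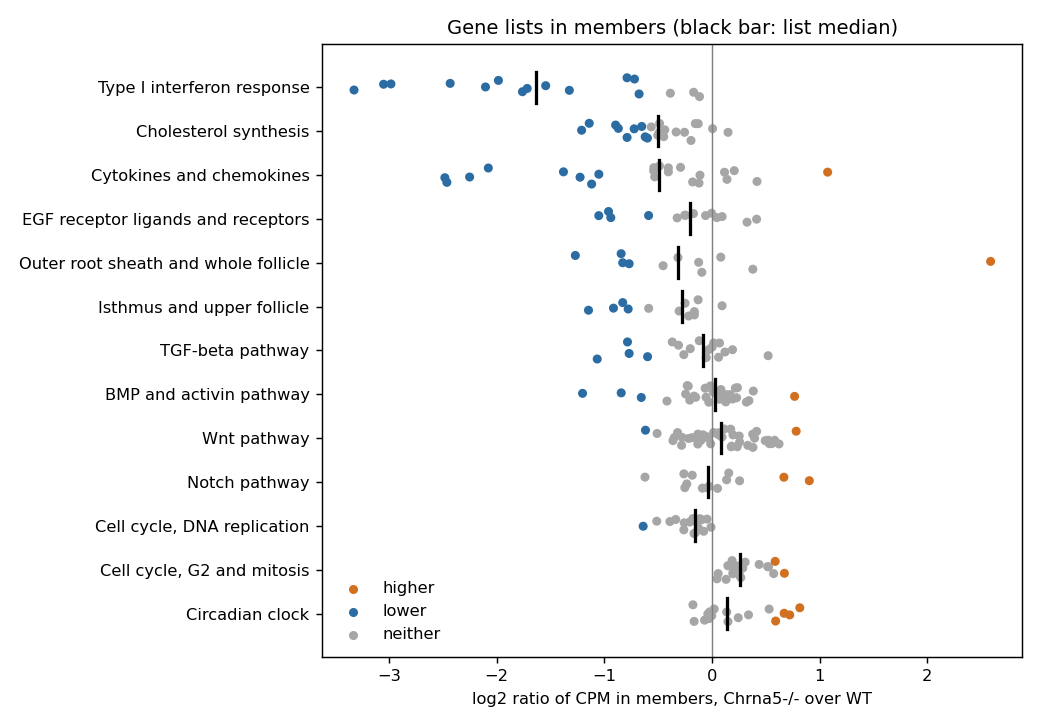
Log2 ratio of CPM in members, Chrna5-/- over WT (horizontal axis), for each measured gene of 13 lists; orange is called higher, blue lower, grey neither, and the black bar is the list median. The interferon list has its median at -1.63 and the cholesterol synthesis list at -0.50, while the BMP and Wnt lists sit near 0.

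Cytokine and chemokine genes were mixed, with 1 higher (2.80% over all genes) and 8 lower (3.40%) of 23 measured and a median log2 ratio of -0.49. Ccl2 stood at 126 and 58.2 CPM (0.460, 0.427 to 0.496), and 23.9% of its WT UMIs came from 10 members. Ccl7, another monocyte chemokine gene, stood at 10.6 and 5.11 CPM (0.482). Ccl20, which attracts CCR6-bearing lymphocytes, stood at 143 and 33.9 CPM (0.237), beside 0.206 in other keratinocytes. Cxcl1 was the gene called higher. Ccl27a (583 and 632 CPM), a skin-homing chemokine gene, was not called in members (1.08) while its ratio in other keratinocytes was 0.614. Cxcl10 (161 and 110 CPM, 0.686), itself inducible by interferon, missed the ratio of 1.5 in members, and in other keratinocytes its ratio was 1.11. Cxcl2, Il1b and Tnf were lower too, but 90.9% of the WT UMIs of Cxcl2 and 75.8% of those of Il1b lay in 10 members, and Il1b was not called after trimming.

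Cholesterol synthesis had 0 genes higher (2.80% over all genes) and 9 lower (3.40%) of 22 measured, with a median log2 ratio of -0.50 (8 of 22 and -0.49 in trimmed members). Msmo1, a sterol methyl oxidase gene, stood at 76.2 and 34.5 CPM (0.453), Sqle, squalene epoxidase, at 34.5 and 14.9 CPM (0.432) and Cyp51 at 87.9 and 53.2 CPM (0.606). Ebp (69.9 and 70.2 CPM) and Hmgcs1 (196 and 171 CPM) were not called. Other keratinocytes had ratios of 0.557 for Msmo1 and 0.550 for Sqle.

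Keratin genes were called in both directions between the libraries. Krt17 stood at 1645 and 925 CPM (0.562, 0.552 to 0.573), Krt6a at 393 and 163 CPM (0.415, 0.397 to 0.433) and Krt16 at 475 and 265 CPM (0.557, 0.537 to 0.577), with ratios of 0.431, 0.501 and 0.618 in other keratinocytes. Krt6b was called higher, with the limits given above, and Krt15 (1465 and 1921 CPM, 1.31) was not called. In the outer root sheath list as a whole 1 gene was higher and 4 were lower of 11, in the isthmus list 0 and 4 of 12 (Defb6, Klk10, Teddm3 and Krt17). Over all measured genes 2.80% were higher and 3.40% lower. The follicle transcription factor genes Sox9 (0.803), Barx2 (1.06) and Runx1 (1.30) were not called. Krt77 was lower (315 and 157 CPM, 0.496) and Mt4 higher (32.8 and 63.1 CPM, 1.93), while Krt1 (1.02) and Krt10 (0.834) were not called.

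For BMP and activin genes 1 of 35 was higher in knockout members and 3 were lower, for Wnt genes 1 and 1 of 43, beside 2.80% higher and 3.40% lower over all measured genes, with list medians of 0.03 and 0.08. Id1, a BMP target gene, stood at 110 and 187 CPM (1.70, 1.61 to 1.795) and at a ratio of 2.06 in other keratinocytes, while the target Id3 was at 0.979. Smad3, which carries activin and TGF-beta signals, stood at 12.5 and 6.98 CPM (0.557). Wnt16 was higher at 11.6 and 19.98 CPM (1.72) and Porcn, needed for Wnt secretion, lower at 6.35 and 4.14 CPM (0.651). Of 14 EGF receptor ligand and receptor genes 0 were higher (2.80% over all genes) and 4 lower (3.40%): the ligand genes Epgn (449 and 230 CPM, 0.513), Areg (272 and 142 CPM, 0.521) and Ereg (5.23 and 2.52 CPM, 0.482), and the feedback inhibitor gene Errfi1 (241 and 160 CPM, 0.664). Hbegf at 383 and 323 CPM was not called. Of 14 Notch genes, beside the same shares, the target Hes1 (28.9 and 45.9 CPM, 1.59) and Lfng (3.46 and 6.47 CPM, 1.87) were higher and none was lower. Of 17 circadian clock genes 4 were higher (2.80% over all genes) and 0 lower (3.40%), namely Npas2 (1.76), Tef (1.65), Dbp (1.59) and Nr1d2 (1.51), with ratios of 0.963, 1.18, 1.34 and 1.42 in other keratinocytes. Nr1d2 was not called in trimmed members. Among 7 measured cholinergic genes 1 was lower, Ly6e (133 and 82.6 CPM, 0.622), a member of the Ly6 family that is also interferon-inducible.

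UMIs of cell cycle genes were found in many members. At least 2 UMIs of Mki67, Top2a, Cdk1, Ccnb1, Birc5 and Cenpf were found in 54.3% of WT and 51.7% of knockout members, against 36.1% and 38.7% of other keratinocytes, which were shallower. Cells that met this limit are called cycling below. The limit depends on depth and was not applied to thinned cells. Summed over cells, these 6 genes came to 1011 and 1310 CPM in members and to 829 and 1162 CPM in other keratinocytes. Of 18 DNA replication genes 3 were higher in members than in other keratinocytes (Ung at 2.26 and 2.25, Gins2 and Hells), and of 20 G2 and mitosis genes none was called. Over all genes 5.23% were higher and 3.25% lower by this comparison. Between the libraries, Cenpf (153 and 244 CPM, 1.59) and Hmmr (62.5 and 93.8 CPM, 1.501) were higher in knockout members, Hmmr not so after trimming, and Ung was lower (17.3 and 11.1 CPM, 0.642).

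Members were not uniform. After thinning to 5000 UMIs, Krt10 and Krt1 had the largest variance relative to their mean (Fano factors of 42.5 and 35.3 in WT and 32.6 and 30.2 in the knockout library). Krt10 was at 0 UMIs in 62.5% of WT and 55.1% of knockout members and at 10 or more in 7.95% and 7.85%. Members with Krt10 also carried Krt1 (r of 0.783 and 0.755), Krt77, Fabp5, Calm4 and Krtdap, genes of differentiating keratinocytes, and less Apoe (-0.331 and -0.336), across 1183 and 853 members. The immediate early genes Fos and Jun formed another pair, with r of 0.683 and 0.633. With Fst, Krt17 had an r of 0.263 and 0.402, and BC100530, of the stefin A cluster of near-identical copies, -0.322 and -0.287. Fst is a panel gene that chose the members, so the selection acts on its values of r, and nothing is read from them. All values of r in this paragraph are correlations across cells of 1 library, given without a test.

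The lower genes of knockout members differed in how they were spread over cells. Ifi27l2a had 3 or more UMIs of 5000 in 37.6% of WT members (34.8 to 40.4) and in 2.58% of knockout members (1.62 to 3.88), and at 0 UMIs stood 32.1% and 78.8%. Nppb had 0 UMIs in 76.1% and 92.7% of members, and 3 or more in 10.9% (9.18 to 12.8) and 2.46% (1.53 to 3.74) and a highest value of 54 and 8 UMIs. Ccl2 reached 3 UMIs in 7.69% (6.24 to 9.36) and 3.99% (2.78 to 5.53).

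**Figure D4:**
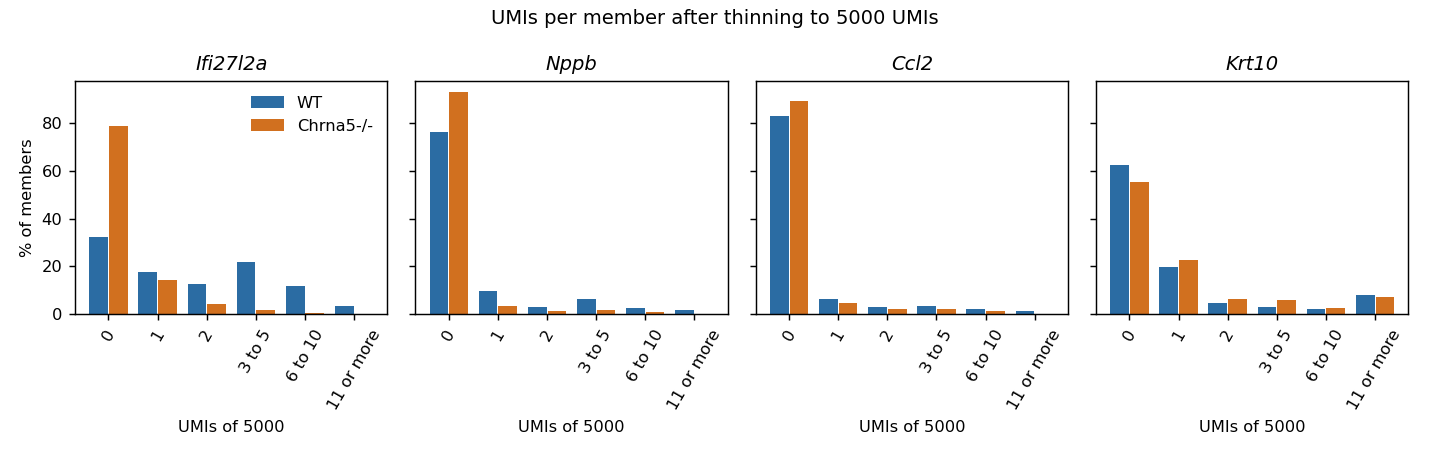
Share of members in percent (vertical axis) by the number of UMIs of a gene after thinning each member to 5000 UMIs (horizontal axis), blue for 1183 WT and orange for 853 Chrna5-/- members. Ifi27l2a has 0 UMIs in 32.1% of WT and 78.8% of knockout members, Nppb and Ccl2 are at 0 in most members of both libraries, and Krt10 has a small group at 11 or more in both.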

How the data were processed

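UMI counts per gene and barcode were used as deposited by the authors, in 1 matrix of 31053 genes for each library; per the submitters' processing notes they came from Cell Ranger 3.0.2 with Seurat 3.0 and build mm10, and per the file headers the matrix was written by software version 3.1.0. Of 10741 WT and 9696 Chrna5-/- barcodes, those kept held 138844057 and 124959162 counts. Members were found by the stated limits, counts were summed over cells and divided by the class total (CPM), and ratios have exact conditional binomial 95% intervals, with a floor of 3 counts where a class had 0. Scrublet (scanpy 1.11.5) gave doublet scores and removed no cell from the main values. Cell types were not clustered. Named genes were the 12 higher and 12 lower genes between libraries whose interval bound nearest 1 was farthest from 1, the 12 highest and 8 lowest against other keratinocytes and the 6 highest and lowest against each follicle class (at 20 CPM or more on the higher side), and genes of 34 lists. Mitochondrial, ribosomal and haemoglobin genes, unnamed models and the rule's genes were left out. Of sex-linked genes only Xist, Tsix, Ddx3y, Eif2s3y, Uty and Kdm5d were left out. Mid1 and Xlr3b, on chromosome X, were kept. Some list members are not reported here. From the lists, further genes were named after their values were seen. Members, lists and rules were chosen with earlier results of these data known. The ratio and call were tested on simulated data. Alternatives changed the rule, depth, scaling, measured limit and free RNA. Gene positions are from GENCODE vM21 (GRCm38).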

Additional observations from a re-analysis of the deposited data

How the results depend on the processing

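No paired analysis was possible because each genotype has 1 library. The smaller share of members in the knockout library kept its direction under every alternative run (ratios 0.757 to 0.890), and moved beyond its interval with 2 panel genes (0.889) and with Krt79 at 0 (0.890). With thinning before the rule, 205 instead of 311 genes were higher in knockout members. Genes lower in members than in other keratinocytes numbered 673 with 4 panel genes, 154 with 2, and 813 without cycling members, instead of 392. The last alternative drops cycling cells from members and not from the comparison cells. Of 456 values for the named genes between the libraries 64 moved beyond their interval and 1 changed direction, Krt6b after thinning (log2 ratio -0.44). Of 480 values of members over other keratinocytes 246 moved and none changed direction. The log2 ratios over all alternatives ran from -3.30 to -2.94 for Ifi27l2a, from -3.06 to -1.84 for Nppb, from 1.35 to 1.47 for Ptk2 and from 0.85 to 1.18 for Cxcl1, but from -4.85 to -0.68 for Cd74, from -2.70 to -0.03 for H2-Eb1 and from 0.56 to 3.90 for Pls1. The interferon list had 6 of 10 measured genes lower and a median of -0.86 without cycling members, and 3 of 5 lower after thinning. Both alternatives leave fewer measured genes. TMM and median-of-ratios factors moved log2 ratios by 0.0056 and 0.0027. Members with 2 or more Krt10 UMIs per 1000 and those with other cell types' genes were left out in alternatives chosen after seeing the data. Depth limits genes under about 50 UMIs in a library, Chrna5 among them.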

Other observations

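Trbc2, which encodes a constant segment of the T cell receptor beta chain, was spread over members although Cd3e, Cd3g, Cd3d and Trdc were not. All 12 listed T and innate lymphoid genes summed to 215 CPM in WT and 180 CPM in knockout members. Members with at least 4 of these genes held 21.8% and 21.1% of those UMIs. It stood at 91.2 and 87.1 CPM in WT and knockout members, 2.77 and 2.91 times its level in other keratinocytes, with a UMI in 62.4% and 61.6% of members, and 6.50% of its WT UMIs lay in 10 members. Trbc1 stood at 10.98 and 10.7 CPM, 3.52 and 5.69 times as high. Cd3e, Cd3g and Cd3d are needed by T cells for a receptor at the surface, and Trdc serves gamma-delta T cells only. Each of these genes had a UMI in at most 2.84% of members of either library, and 85.6% or more of its WT UMIs lay in 10 members. Reads of Trbc1 and Trbc2, as near-identical copies, cannot be assigned to either with certainty.

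Tchh, which encodes trichohyalin of the inner root sheath, was higher in members than in other keratinocytes (21.3 and 34.98 CPM, 2.17 and 2.12 times) and higher in knockout than in WT members (1.64, 1.45 to 1.86). The hair keratin genes Krt31 and Krt35 had at most 0.0864 CPM in members. Of the immediate early genes, Egr2 was 3.23 and 3.09 times and Btg2 1.66 and 1.68 times as high in members. Myc was higher in members (1.98 and 1.68 times) and higher in knockout than in WT members (153 and 237 CPM, 1.55), with a ratio of 1.83 in other keratinocytes. Mgst1, a glutathione transferase gene of sebaceous cells, stood at 60.7 and 58.7 CPM, 2.85 and 2.48 times the level of other keratinocytes, and Krt7 at 3.76 and 4.85 CPM, 5.00 and 6.67 times. In the sebaceous gland list as a whole, 2 of 7 measured genes were higher (5.23% over all genes) and 2 were lower (3.25%). The median log2 ratio of that list was 0.02 in WT and 0.05 in the knockout library.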
